A study of Mus musculus with 8 samples.

Results

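The laminin chains Lama2, Lama4, Lama5, Lamb1, Lamb2 and Lamc1, the nidogens Nid1 and Nid2, perlecan (Hspg2) and agrin (Agrn) were followed in cultured mouse cardiac fibroblasts. These 10 genes of 54532 were taken by gene name from the deposited tables of counts and of FPKM (fragments scaled to gene length and library total), and all 10 were abundant enough to be tested. They are the basement membrane genes other than collagen IV that were chosen for a closer description. The cells came from C57BL/6 mice and were used at passage 2. In the first group (TSP-4 plasmid, 4 libraries) they were transfected with pAAV.CMV.SV40.THBS4-HA.SV40(polyA), which carries murine Thbs4 with an HA tag and so encodes thrombospondin-4 (TSP-4), a secreted matricellular protein. In the second group (empty plasmid, 4 libraries, titled non-stimulated in the labels) they received pAAV-CA. Because these constructs differ, no difference can be assigned to Thbs4 alone. Fold changes are given as TSP-4 plasmid over empty plasmid, and gene positions are in GRCm38. All cells were kept in antibiotic-free medium for 12 h and then without serum for 24 h before poly(A) RNA was taken. Each group has libraries lettered A to D. The labels do not say what the letters mark, nor whether separate animals or cultures gave the libraries. The p-values therefore measure the spread between these libraries, which may be technical.

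Basement membranes are thin sheets of extracellular matrix. Laminins are heterotrimers of an alpha, a beta and a gamma chain. Many of them are cross-shaped and polymerise on the cell surface, where integrins and dystroglycan bind the alpha chain. Nidogens bind the laminin gamma chain and type IV collagen and so link the laminin and collagen networks. Perlecan and agrin are large heparan sulfate proteoglycans that bind dystroglycan and growth factors, and agrin is best known for clustering acetylcholine receptors at the neuromuscular junction. In the heart these sheets surround cardiomyocytes and capillaries, and fibroblasts are among the cells that make their components.

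The sequence in front of each gene's start was read from a RefSeq promoter table (build GRCm38.p6), which matched 7 of the 10 members with 8 entries. No entry was matched for Lama4, Lamc1 and Nid2. The 3 windows printed here are the 250 bases upstream of the RefSeq start, along the gene's strand, for the most abundant member (Hspg2, chr4:137468553-137468802, plus strand), the least abundant (Lama5, chr2:180225860-180226109, minus strand) and the member with the wider range between letters of the 2 not lowest in D (Lama2, chr10:27616943-27617192, minus strand). Capitals mark the GC box, searched as GGGCGG and as its reverse complement CCGCCC.
Hspg2: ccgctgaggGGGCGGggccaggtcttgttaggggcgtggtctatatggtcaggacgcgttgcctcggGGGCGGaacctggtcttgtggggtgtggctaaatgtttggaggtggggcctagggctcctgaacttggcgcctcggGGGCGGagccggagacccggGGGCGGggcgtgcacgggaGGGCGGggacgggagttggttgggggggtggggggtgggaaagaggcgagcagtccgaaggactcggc
Lama5: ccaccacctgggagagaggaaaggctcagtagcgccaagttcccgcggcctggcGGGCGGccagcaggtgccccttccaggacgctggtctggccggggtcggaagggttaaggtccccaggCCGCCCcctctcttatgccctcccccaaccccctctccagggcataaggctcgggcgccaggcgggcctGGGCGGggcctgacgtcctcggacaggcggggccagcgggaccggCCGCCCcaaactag
Lama2: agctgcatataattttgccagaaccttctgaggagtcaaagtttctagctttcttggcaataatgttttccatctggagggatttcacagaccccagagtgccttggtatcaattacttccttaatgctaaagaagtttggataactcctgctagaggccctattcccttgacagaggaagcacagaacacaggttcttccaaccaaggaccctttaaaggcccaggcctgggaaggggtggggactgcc
The Hspg2 window held 5 GC boxes and 20 CpG at 70% GC. The Lama5 window held 4 GC boxes and 19 CpG at 72.4% GC. The Lama2 window held 0 GC boxes and 0 CpG at 47.2% GC, and it lies wholly inside Lama2 as the files place the gene. The last bases of the Hspg2 window likewise lie inside Hspg2. A GC box stood in 6 of the 8 entries of the members, against 32.7% of all 32851 entries, whose median was 52.4% GC and 6 CpG. The Lamb2 entry, at 43.6% GC with 3 CpG, was the other one without the motif. These matches describe the letters in the windows only.

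Total counts lay between 17123735 and 22530947 per library, and each library of the TSP-4 plasmid group held between 25754 and 38063 Thbs4 counts, against 2 to 11 with the empty plasmid. The log2 fold change of Thbs4 was 12.45 (95% interval 11.44 to 13.45), and edgeR's quasi-likelihood test put its adjusted p at 1.93e-06. Libraries were compared by CPM, the read count normalised to library size, here scaled with edgeR's TMM factors, and genes were compared by FPKM. All 10 fibroblast markers were tested and none averaged under 1 CPM over the 8 libraries, and their summed level was 15390 to 23730 CPM in TSP-4 plasmid libraries and 15110 to 23050 CPM in empty plasmid libraries. Of the 8 cardiomyocyte markers 7 averaged under 1 CPM (Myh6, Myh7, Tnni3, Actc1, Nppa, Pln and Ryr2), and so did Sox10 and Ncmap among the Schwann cell markers. In bulk RNA, fewer cells of a type and less RNA per cell cannot be told apart.

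Perlecan was by far the most abundant member per length, and the alpha 5 chain the least. Hspg2 had 189 ± 19.9 FPKM (SD over all 8 libraries), and by count it ranked between 14 and 19 among all genes. Lamc1, the gamma 1 chain found in most laminin trimers, followed with 91.6 ± 6.01 FPKM, and Nid1 with 63.2 ± 5.64 FPKM. The ranges of these 3 genes did not overlap one another or the genes after them. Lamb2 (48.0 ± 5.97 FPKM) and Lamb1 (46.4 ± 2.28 FPKM) came next, and their order did not hold in every library, since Lamb2 was above Lamb1 in 6 of 8. Agrn had 24.8 ± 2.60 FPKM, Lama4 19.7 ± 4.82 FPKM, Lama2 12.2 ± 2.16 FPKM and Nid2 10.8 ± 3.60 FPKM. Each of these 4 overlapped its neighbour in that order. Agrn was above Lama4 in 6 of 8 libraries, Lama4 above Lama2 in 8 of 8 and Lama2 above Nid2 in 4 of 8. Lama5 lay apart from them at 2.96 ± 0.41 FPKM.

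**Figure D1:**
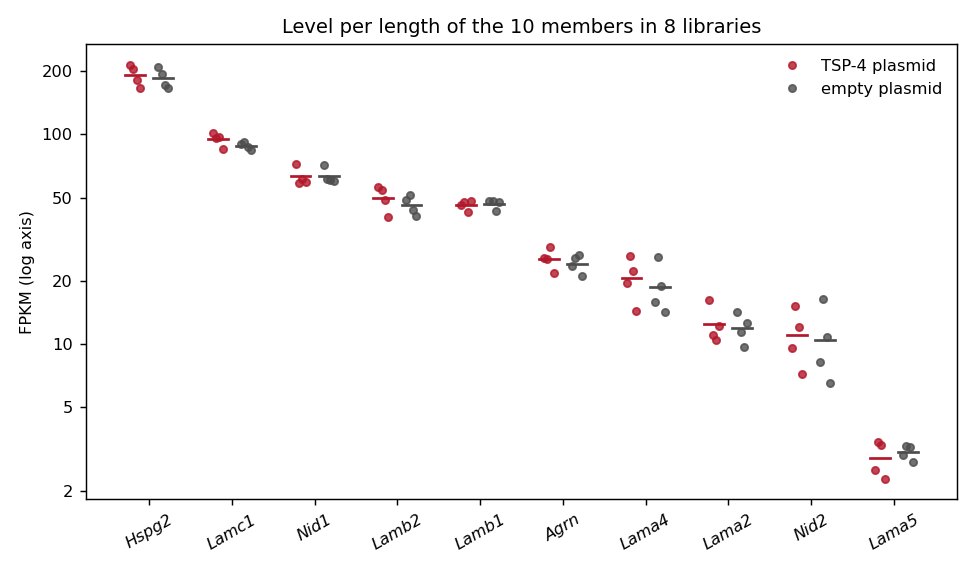
FPKM (log axis) of the 10 members, ordered by mean, with 1 point per library (TSP-4 plasmid left, empty plasmid right of each gene). Hspg2 is highest with a mean of 189 FPKM and Lama5 lowest with 2.96 FPKM, and at every gene the groups overlap.

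The gamma 1 chain exceeded the alpha chains in FPKM, while the beta chains together came close to it. The ratio of Lamc1 to the summed FPKM of Lama2, Lama4 and Lama5 was 2.66 ± 0.238 in TSP-4 plasmid libraries and 2.65 ± 0.267 in empty plasmid libraries (SD, n = 4 each), and it ran from 2.26 to 2.94 over all libraries. The ratio of summed Lamb1 and Lamb2 FPKM to Lamc1 was 1.01 ± 0.0515 in TSP-4 plasmid libraries and 1.05 ± 0.0408 in empty plasmid libraries (SD, n = 4 each). The 10 members summed to 518 ± 47.4 FPKM in TSP-4 plasmid libraries and 498 ± 38.0 FPKM in empty plasmid libraries (SD, n = 4 each). They took 0.549 ± 0.0454% of all counts in TSP-4 plasmid libraries and 0.535 ± 0.0356% in empty plasmid libraries.

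The plasmids were compared to find transcripts that change when fibroblasts make TSP-4, and no member differed past the threshold (adjusted p under 0.05). In edgeR's quasi-likelihood test, 0 of 10 members were called, against 0.00679% of the 14723 genes tested, a share made up by Thbs4 alone. The unadjusted p was under 0.05 for 0 of 10 members, against 1.60% of all genes, and the adjusted p was 1 for each member. DESeq2 called 0 members as well, and 1 gene in all. The values of the groups overlapped for 10 of 10 members, and 1.51% of all genes had groups that did not overlap. The fold change was above 0 on the log2 scale for 7 members and below 0 for 3, and the median was 0.06, against -0.00014 over all genes tested.

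Among the alpha chains, Lama2 (ENSMUSG00000019899, chr10:26980036-27619758, minus strand) encodes the main chain of the laminin around muscle fibres and its loss causes a congenital muscular dystrophy. Lama2 stood at 265, 181, 170 and 200 CPM in TSP-4 plasmid libraries A to D, against 233, 189, 160 and 206 CPM in empty plasmid libraries A to D. Library A was the highest in both groups and C the lowest, and the groups overlapped. Lama2 thus had a log2 fold change of 0.05, with an SE of 0.16 and a 95% interval of -0.31 to 0.42. Lama4 (ENSMUSG00000019846, chr10:38965515-39110188, plus strand), the alpha chain typical of vascular and mesenchymal basement membranes, stood at 235, 318, 271 and 175 CPM with the TSP-4 plasmid, against 190, 316, 231 and 172 CPM with the empty plasmid (A to D). B was the highest and D the lowest in both groups. Its log2 fold change was 0.14 (SE 0.24, interval -0.41 to 0.68), the largest among the members in either direction. The interval ran from 0.754-fold to 1.60-fold, which takes in 1.5-fold. Without TSP-4 plasmid library B its value was -0.0018, and without empty plasmid library B it was 0.34. Either fit leaves B, the highest letter, in 1 group alone. Lama5 (ENSMUSG00000015647, chr2:180176373-180225859, minus strand), the broadly distributed alpha chain of mature epithelial and vascular basement membranes, stood at 28.5, 39.1, 37.5 and 26.1 CPM with the TSP-4 plasmid, against 33.5, 37.6, 37.1 and 31.4 CPM with the empty plasmid (A to D). B and C were high and A and D low in both groups, and the groups overlapped. Lama5 thus had a log2 fold change of -0.09, with an SE of 0.14 and an interval of -0.40 to 0.22.

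The beta and gamma chains varied less between libraries, with a highest over lowest CPM of 1.14 for Lamb1, 1.19 for Lamc1 and 1.39 for Lamb2, against 1.66 for Lama2, 1.85 for Lama4 and 1.499 for Lama5. Lamb1 (ENSMUSG00000002900, chr12:31265234-31329644, plus strand), the beta chain of early and of many adult basement membranes, stood at 456, 473, 424 and 480 CPM in TSP-4 plasmid libraries A to D, against 476, 483, 433 and 473 CPM in empty plasmid libraries A to D. C was the lowest in both groups, and the others lay close together. Its log2 fold change was -0.03 (SE 0.06), and the interval from 0.894-fold to 1.08-fold was the narrowest among the members. Lamb2 (ENSMUSG00000052911, chr9:108479736-108490530, plus strand), the beta chain enriched at synapses and in the kidney glomerulus, stood at 342, 331, 297 and 247 CPM with the TSP-4 plasmid, against 294, 318, 270 and 249 CPM with the empty plasmid. D was the lowest in both groups. Lamb2 differed by 0.11 on the log2 scale, with an SE of 0.11 and an interval of -0.15 to 0.36. Lamc1 (ENSMUSG00000026478, chr1:153218922-153332786, minus strand) stood at 835, 798, 803 and 705 CPM with the TSP-4 plasmid, against 744, 768, 732 and 702 CPM with the empty plasmid. TSP-4 plasmid libraries A, B and C were above every empty plasmid library, and TSP-4 plasmid library D was below 3 of the 4. Its log2 fold change was 0.09 (SE 0.06, interval -0.05 to 0.24), and its unadjusted edgeR p of 0.187 was the smallest among the members.

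The linkers showed no difference between plasmids past the threshold, and differed in precision. Nid1 (ENSMUSG00000005397, chr13:13437551-13512269, plus strand) stood at 503, 410, 428 and 414 CPM in TSP-4 plasmid libraries A to D, against 498, 429, 426 and 417 CPM in empty plasmid libraries A to D. A stood apart as the highest in both groups. Its log2 fold change of -0.01 had an SE of 0.08 and an interval of -0.20 to 0.18. Nid2 (ENSMUSG00000021806, chr14:19751265-19811787, plus strand), the less abundant nidogen, stood at 49.5, 79.4, 62.5 and 37.5 CPM with the TSP-4 plasmid, against 42.4, 85.4, 56.5 and 34.0 CPM with the empty plasmid. B was the highest and D the lowest in both groups. Its log2 fold change was 0.07 (SE 0.33, interval -0.68 to 0.82), and the interval from 0.623-fold to 1.77-fold was the widest among the members. The end of Nid2 overlaps Rtraf on the other strand over 437 bases (chr14:19811351-19811787). Rtraf had 1314 to 1808 counts per library, more than Nid2 in 8 of 8 libraries. The strand setting of the counting is not given in the sources used here, so reads from the shared stretch cannot be told apart. The other genes that overlap a member had at most 14 counts in a library.

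Of the proteoglycans, Hspg2 (ENSMUSG00000028763, chr4:137468769-137570630, plus strand) stood at 3071, 2970, 2594 and 2387 CPM in TSP-4 plasmid libraries A to D, against 2980, 2794.5, 2500.5 and 2382 CPM in empty plasmid libraries A to D. In both groups A was the highest and D the lowest. Hspg2 thus differed by 0.05 on the log2 scale, with an SE of 0.10 and an interval of -0.19 to 0.28. Agrn (ENSMUSG00000041936, chr4:156165290-156197488, minus strand) stood at 239, 237, 269 and 203 CPM with the TSP-4 plasmid, against 218, 241, 250 and 196 CPM with the empty plasmid. C was the highest and D the lowest in both groups. Agrn differed by 0.07 on the log2 scale, with an SE of 0.10 and an interval of -0.16 to 0.29. In this fit, which has no term for the letter, the interval lay within 1.5-fold in either direction for 8 of 10 members, all but Lama4 and Nid2. The same held for 8575 of the 9324 genes with a mean of at least 10 CPM.

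**Figure D2:**
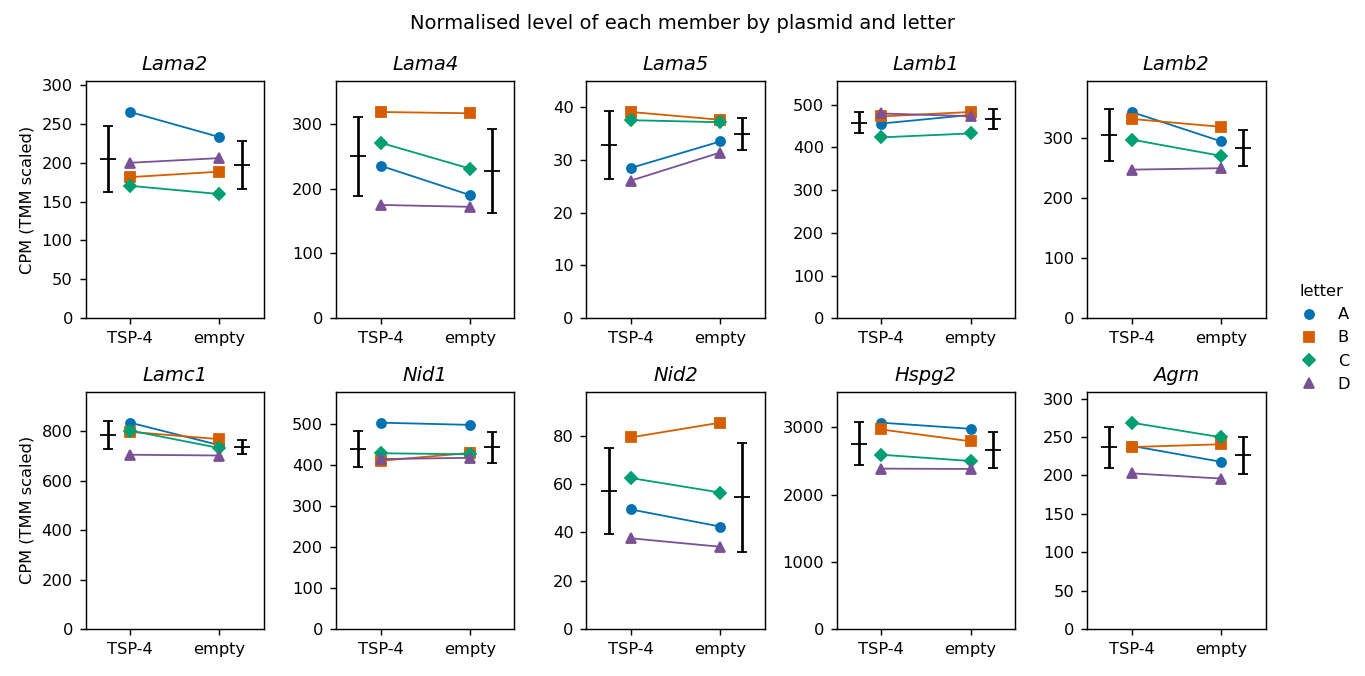
TMM-scaled CPM of each member, 1 panel per gene, with the TSP-4 plasmid libraries left and the empty plasmid libraries right, and a line joining libraries of the same letter. The groups overlap in every panel, and Nid2 runs from 34.0 to 85.4 CPM while Lamb1 stays between 424 and 483 CPM.

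Libraries with the same letter resembled each other, and a fit with the letter as a replicate block gave narrower intervals. The largest difference between the plasmids within a letter was 0.31 on the log2 scale (Lama4, letter A), and the median size over members and letters was 0.06. With the replicate block edgeR again called 0 of 10 members, against 0.0136% of all genes tested (2 genes), with adjusted p from 0.483 (Lama4) to 0.955 (Nid1). The unadjusted p was under 0.05 for 3 members, against 8.12% of all genes. Lama4 then had a log2 fold change of 0.14 (interval 0.03 to 0.25, unadjusted p 0.0145, adjusted p 0.483). Lamb2 had 0.10 (interval 0.01 to 0.19, unadjusted p 0.0288, adjusted p 0.559) and Lamc1 0.09 (interval 0.01 to 0.17, unadjusted p 0.0290, adjusted p 0.559). With 1 letter (A, B, C or D in turn) left out of the block the log2 fold change was 0.09, 0.19, 0.12 and 0.19 for Lama4. In the same order it was 0.06, 0.12, 0.09 and 0.15 for Lamb2, and 0.07, 0.10, 0.08 and 0.12 for Lamc1, lowest without A for each of the 3. Lama4, Lamc1 and Hspg2 were higher with the TSP-4 plasmid in 4 of 4 letters, against 8.03% of all genes, and no member was lower in 4 of 4. The members' median log2 fold change was 0.06 in the paired fit too. Nid2, whose interval was the widest without the block, had 0.10 in the paired fit (interval -0.03 to 0.22).

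**Figure D3:**
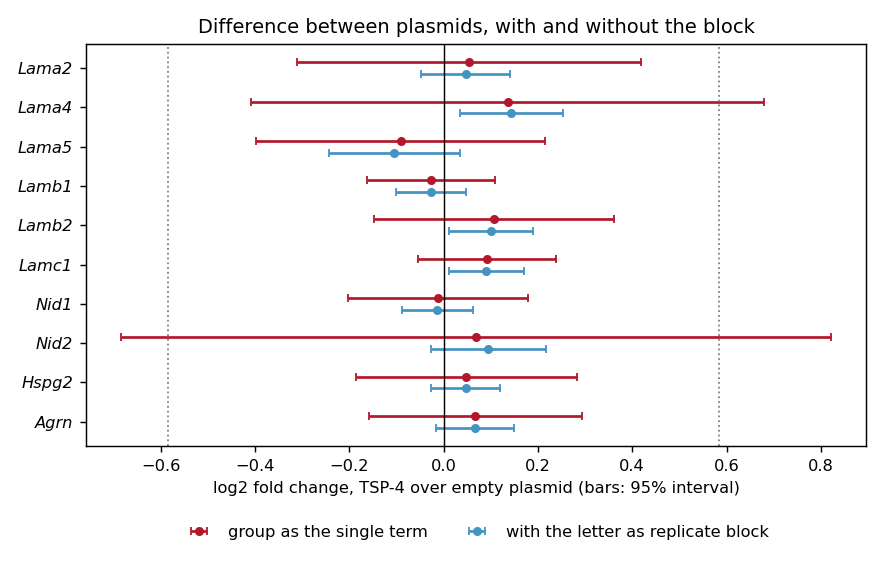
Log2 fold change of each member, TSP-4 plasmid over empty plasmid, with 95% intervals from edgeR without and with the replicate block. All intervals without the block cross 0, and with it those of Lama4, Lamb2 and Lamc1 lie above 0 at adjusted p of 0.483, 0.559 and 0.559.

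The shares of Lama4 and Lama2 among the alpha chains were high and low in the same letters in both groups. Between plasmids 6 shares were compared, and with 4 libraries a group a single share could not reach an adjusted p below 0.171, so these tests could not have called one alone. Lama4 made up 51.0, 64.5, 62.1 and 49.9% of the summed alpha chain FPKM in TSP-4 plasmid libraries A to D, against 47.8, 63.9, 59.5 and 48.1% in empty plasmid libraries A to D. B and C were high and A and D low in both groups. Lama2 made up 42.5, 27.1, 28.8 and 42.2% with the TSP-4 plasmid, against 43.3, 28.1, 30.4 and 42.6% with the empty plasmid, high in A and D. The shares of a library sum to the whole, so they are not independent. Lama5 made up the rest, 7.98 ± 1.09% in TSP-4 plasmid libraries and 9.10 ± 0.869% in empty plasmid libraries (SD, n = 4 each). Between plasmids the share of Lama4 differed by 2.05 percentage points, that of Lama2 by -0.931 and that of Lama5 by -1.12. Exact two-sided permutation tests gave p = 0.543, 0.6 and 0.2 in that order of genes, each 0.857 after Benjamini-Hochberg adjustment over 6 shares. Within letters, Lama4's share was higher with the TSP-4 plasmid in 4 of 4 and Lama2's was lower in 4 of 4. The paired exact sign-flip test, a replicate block for shares, gave p = 0.125 for either share, the smallest that 4 letters allow, and 0.3 after adjustment.

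**Figure D4:**
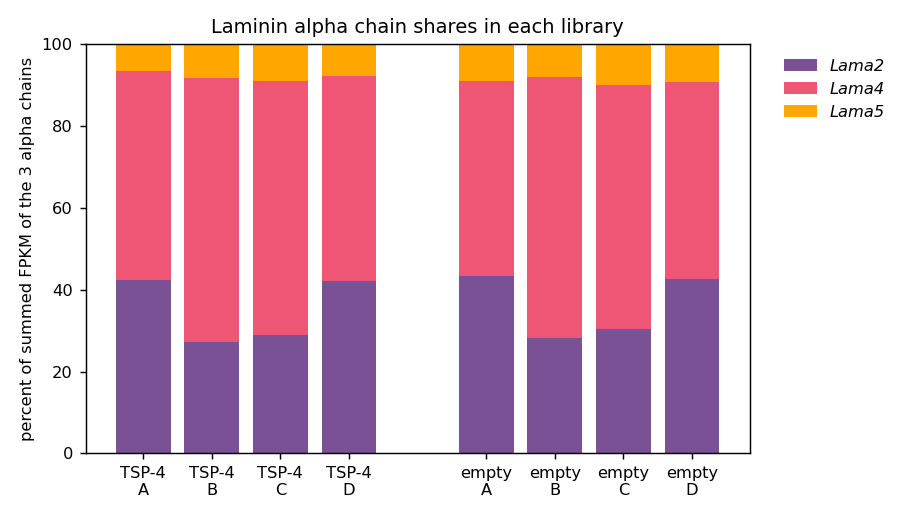
Percent of the summed FPKM of the 3 laminin alpha chains taken by each chain, 1 bar per library, TSP-4 plasmid left and empty plasmid right. Lama4 takes the largest part in every library, from 47.8 to 64.5%, and is high in B and C of both groups.

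The other 3 shares are given with the same limit. Lamb1 made up 45.0, 46.7, 46.7 and 54.4% of the beta chain FPKM in TSP-4 plasmid libraries A to D, against 49.9, 48.3, 49.6 and 53.8% in empty plasmid libraries A to D, a mean difference of -2.20 points (exact permutation p = 0.4, adjusted 0.857). D had the highest share in both groups. Nid1 made up 88.3, 79.4, 83.6 and 89.2% of the nidogen FPKM with the TSP-4 plasmid, against 89.7, 78.9, 84.9 and 90.1% with the empty plasmid, a difference of -0.792 points (exact permutation p = 0.714, adjusted 0.857). B had the lowest share in both groups. Hspg2 made up 88.3 ± 1.4% of the summed perlecan and agrin FPKM in TSP-4 plasmid libraries and 88.4 ± 1.34% in empty plasmid libraries (SD, n = 4 each), with an exact permutation p of 0.886. The smallest unadjusted p that 4 against 4 libraries allow is 0.0286.

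Members differed more between letters than between plasmids. The range of letter means was 0.16 to 1.21 on the log2 scale, with a median of 0.38, and it was wider for each member than its log2 fold change between plasmids, which was 0.14 at most in size. This sets a range over 4 letters beside a difference of 2 means, and was not itself tested. In edgeR's F test for the letter, with the plasmid in the model, 8 of 10 members passed an adjusted p of 0.05. Of all genes tested 28.1% passed, and of those with a mean of at least 10 CPM 33.4%. The widest range of letter means was that of Nid2, with 46.0, 82.4, 59.5 and 35.8 CPM in letters A to D, a range of 1.21 on the log2 scale or 2.31-fold (adjusted p 6.39e-07). Lama4 followed with 213, 317, 251 and 173 CPM, a 1.83-fold range (adjusted p 1.32e-05). Lama5 had 31.0, 38.3, 37.3 and 28.7 CPM, a 1.34-fold range (adjusted p 0.00668). These 3 genes shared the order B, C, A, D from high to low, and no other member had it. Without TSP-4 plasmid library D, Lama5 was not called (adjusted p 0.0555), with a range of 0.32 on the log2 scale beside 0.42 with all libraries.

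Lama2 and Lamb1 stood apart from the rest, because neither was lowest in D. Lama2 had 249, 185, 165 and 203 CPM in letters A to D, a 1.51-fold range (adjusted p 4.59e-05) with A highest and C lowest. Lamb1 had 466, 478, 428 and 477 CPM, a 1.12-fold range that missed the threshold (adjusted p 0.0654). The other 8 members were lowest in D, as were 25.1% of all genes tested. With total counts in place of TMM factors the number was 7, Nid1 then being lowest in B.

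Hspg2 had 3026, 2882, 2547 and 2384 CPM in letters A to D (1.27-fold, adjusted p 0.000279). Lamb2 had 318, 324, 283 and 248 CPM (1.31-fold, adjusted p 0.000632). Agrn had 228, 239, 259 and 199 CPM (1.30-fold, adjusted p 0.000793). All 3 were thus lowest in D and differed in which letter was highest. Nid1 had 500, 420, 427 and 416 CPM (1.20-fold, adjusted p 0.00195), high in A alone. Lamc1 had 790, 783, 768 and 704 CPM (1.12-fold) and missed the threshold with an adjusted p of 0.0863. The letter with the lowest level was the same in both groups for 9 of 10 members, and the letter with the highest level for 7 of 10.

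**Figure D5:**
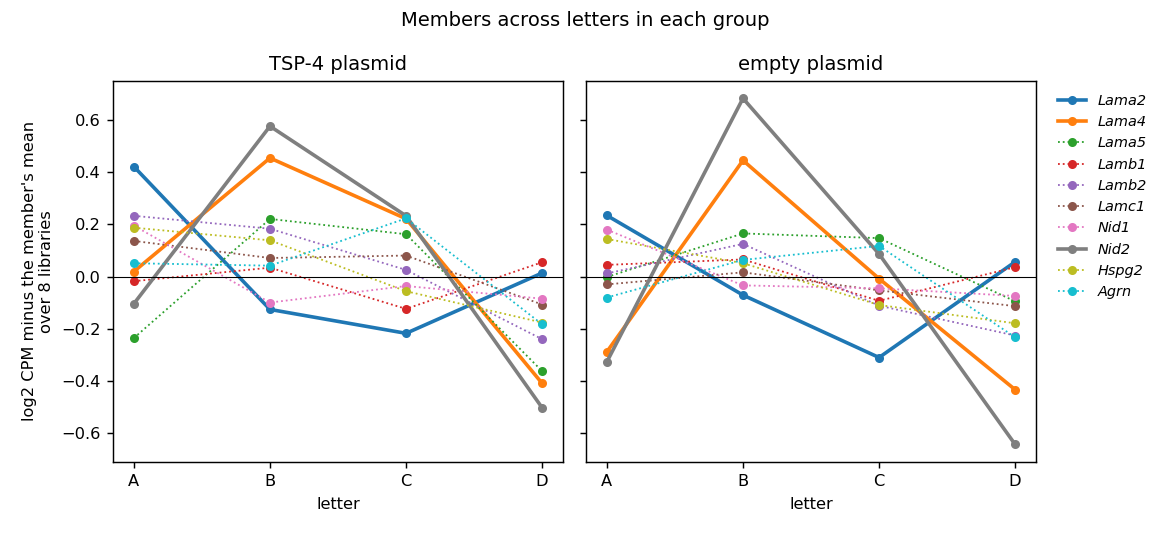
Log2 CPM of each member minus its mean over the 8 libraries, by letter, in TSP-4 plasmid libraries (left) and empty plasmid libraries (right). Nid2 and Lama4 peak at B and are lowest at D in both groups, and Lama2 is highest at A.

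Marker levels also moved with the letters. The summed fibroblast markers (10 of 10 tested) were 23730, 22450, 21370 and 15390 CPM in TSP-4 plasmid libraries A to D, against 20130, 23050, 18350 and 15110 CPM in empty plasmid libraries A to D, lowest in D in both. Fn1 and Col1a1, the highest of the list, were lowest in D in both groups. Not every fibroblast marker was: Dcn, named after its values were seen, was lowest in A, with 145 CPM in the TSP-4 plasmid library and 122 CPM in the empty plasmid library. The pericyte and smooth muscle markers (6 of 8 tested, Kcnj8 and Abcc9 averaging under 1 CPM) summed to 348, 378, 340 and 285 CPM with the TSP-4 plasmid, against 343, 382, 306 and 286 CPM with the empty plasmid. They were highest in B and lowest in D in both groups, and Pdgfrb made up most of the sum. Without Pdgfrb the list summed to 56.6, 60.1, 62.9 and 43.9 CPM with the TSP-4 plasmid, against 76.3, 67.5, 57.6 and 48.8 CPM with the empty plasmid, still lowest in D but not highest in B. Its members did not share 1 order: Mcam, named after its values were seen, was lowest in B in both groups, with 5.02 CPM in the TSP-4 plasmid library and 6.13 CPM in the empty plasmid library. The epicardial and mesothelial markers (7 of 8 tested, Krt8 and Krt18 averaging under 1 CPM) summed to 975, 539, 608 and 877 CPM with the TSP-4 plasmid, against 993, 496, 583 and 844 CPM with the empty plasmid. They were high in A and D, the letters in which Lama2 was highest. Lrrn4, Upk3b and Upk1b had the highest levels of this list, and each was high in A and D. Wt1, named after its values were seen, was lowest in D in both groups, with 3.93 CPM in the TSP-4 plasmid library and 4.12 CPM in the empty plasmid library. The macrophage markers (8 of 8 tested) ran from 275.5 to 1553 CPM in TSP-4 plasmid libraries and from 311 to 1264 CPM in empty plasmid libraries, highest in C and lowest in A in both. The endothelial markers (7 of 8 tested, Cldn5 averaging under 1 CPM) summed to 44.0 to 63.4 CPM in TSP-4 plasmid libraries and 46.3 to 79.0 CPM in empty plasmid libraries. The Schwann cell markers (4 of 7 tested) summed to 13.0 to 17.5 CPM in TSP-4 plasmid libraries and 10.7 to 15.2 CPM in empty plasmid libraries, while the cardiomyocyte markers (1 of 8 tested) summed to 12.8 to 17.6 CPM with the TSP-4 plasmid, against 12.3 to 16.5 CPM with the empty plasmid. No marker was at 0 in every library. The part of these cells in the members' differences was not tested.

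Nid2 had the widest spread over the 8 libraries, 1.32 on the log2 scale, and was used to look for genes with a like pattern. Of 9323 genes with a mean of at least 10 CPM, those with the smallest root mean square difference from its centred log2 CPM over the 8 libraries were Adamts2 (0.078), which encodes a procollagen N-proteinase, Fxyd6 (0.102), a regulator of the sodium pump, Ube2c (0.109) and Cenpf (0.11), both known from mitosis, and C4b (0.115), a complement component. Lama4 was at rank 21 with 0.136. Lama2 was at rank 8672.

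Partners and modifiers of the members were read from 8 lists with 106 genes, of which 99 were tested. Between plasmids edgeR called 0 of 99, against 0.00679% of all genes tested. An unadjusted p under 0.05 was found for 1 (Rapsn), against 1.60% of all genes. With the replicate block 0 were called and 16 had an unadjusted p under 0.05, which is 16.2% beside the 8.12% of all genes. The log2 fold change was above 0 for 57 genes and below 0 for 42, with a median of 0.02. Between letters 59 of 99 were called, which is 59.6% beside the 28.1% of all genes. Values below are means ± SD with n = 4 per group, and for every gene named except Rapsn the groups overlapped.

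Several other laminin chains were scarce. Lama1 averaged 0.187 FPKM, Lama3 0.115 FPKM and Lamc3 0.0486 FPKM over the 8 libraries. Of the 9 other laminin and netrin genes 7 were tested, 0 were called between plasmids, 4 lay above 0 and 3 below (median 0.04), and 5 were called between letters. The netrin Ntn4, which binds laminin and loosens its network, had 92.6 ± 7.67 CPM in TSP-4 plasmid libraries and 98.1 ± 11.0 CPM in empty plasmid libraries. Lamb3, a beta chain of epithelial laminin, had 2.92 ± 1.24 CPM in TSP-4 plasmid libraries and 3.70 ± 1.85 CPM in empty plasmid libraries.

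Col4a1 and Col4a2, the main chains of the type IV collagen that nidogens bind, averaged more FPKM than perlecan. Of the 10 basement membrane collagen and cross-linking genes 0 were called between plasmids, 8 lay above 0 and 2 below (median 0.09), and 7 were called between letters. Col4a1 had 331 ± 32.0 FPKM in TSP-4 plasmid libraries and 323 ± 23.2 FPKM in empty plasmid libraries. Col4a2 had 251.5 ± 32.9 FPKM in TSP-4 plasmid libraries and 242 ± 24.7 FPKM in empty plasmid libraries. The genes of this list with the smallest p between plasmids were Col4a6 and Col4a5, which encode less widespread type IV chains. Col4a6 had 133 ± 21.6 CPM in TSP-4 plasmid libraries and 120 ± 8.98 CPM in empty plasmid libraries. Col4a5 had 506 ± 62.8 CPM in TSP-4 plasmid libraries and 468 ± 38.0 CPM in empty plasmid libraries.

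Of the 16 other basement membrane glycoproteins 14 were tested, 0 were called between plasmids, 7 lay above 0 and 7 below (median 0.01), and 7 were called between letters. Sparc, a collagen-binding matricellular protein, had 4751 ± 528 CPM in TSP-4 plasmid libraries and 4456 ± 381 CPM in empty plasmid libraries. Fbln2, a fibulin that binds nidogen, had 5361 ± 67.7 CPM in TSP-4 plasmid libraries and 5362 ± 240 CPM in empty plasmid libraries. Its range between letters was 0.08 on the log2 scale. Smoc1, a calcium-binding relative of Sparc, had 71.4 ± 10.8 CPM in TSP-4 plasmid libraries and 64.6 ± 9.54 CPM in empty plasmid libraries. Smoc2, its paralogue, had 2.54 ± 0.314 CPM in TSP-4 plasmid libraries and 2.22 ± 0.45 CPM in empty plasmid libraries.

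Of the 21 receptor genes 20 were tested, 0 were called between plasmids, 12 lay above 0 and 8 below (median 0.02), and 15 were called between letters. Itgb1, the integrin beta 1 subunit shared by most laminin-binding integrins, was the highest of them in FPKM and had 1724 ± 117 CPM in TSP-4 plasmid libraries and 1716 ± 53.5 CPM in empty plasmid libraries. Rpsa, a ribosomal protein also described as a laminin receptor, had 1151 ± 19.7 CPM in TSP-4 plasmid libraries and 1130 ± 39.4 CPM in empty plasmid libraries. Both were scarcely different between letters, with ranges of 0.15 and 0.06 on the log2 scale that did not pass the threshold. Sgcb, a sarcoglycan of the dystrophin complex, had 63.4 ± 3.27 CPM in TSP-4 plasmid libraries and 59.9 ± 2.71 CPM in empty plasmid libraries. Itgb4, the integrin beta subunit of hemidesmosomes, had 2.20 ± 0.341 CPM in TSP-4 plasmid libraries and 2.63 ± 0.638 CPM in empty plasmid libraries.

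The 12 genes that build the laminin-binding glycan of dystroglycan included 0 called between plasmids, with 5 above 0 and 7 below (median -0.01), and 3 called between letters. Those 3 are 25% of the list, beside 28.1% of all genes tested. B3galnt2, a sugar transferase of that glycan, had 23.4 ± 1.12 CPM in TSP-4 plasmid libraries and 25.4 ± 0.905 CPM in empty plasmid libraries, a log2 fold change of -0.12 (interval -0.26 to 0.02). It did not pass the threshold. Pomgnt1, another sugar transferase of the glycan, had 96.9 ± 9.81 CPM in TSP-4 plasmid libraries and 100.4 ± 9.66 CPM in empty plasmid libraries.

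Agrin's signalling partners were scarce. Of 5 genes 3 were tested, Musk and Dok7 having too few counts, and 0 were called between plasmids, with 3 above 0 (median 0.31). Rapsn, the scaffold of acetylcholine receptors, stood at 4.11, 4.96, 4.31 and 4.72 CPM in TSP-4 plasmid libraries A to D, against 3.80, 3.89, 3.16 and 3.39 CPM in empty plasmid libraries A to D. The groups did not overlap, as for 1.51% of all genes, at no more than 91 counts in a library. Its log2 fold change was 0.35 (interval 0.04 to 0.65, unadjusted edgeR p 0.0311, adjusted p 1). Lrp4, the agrin receptor, had 4.70 ± 1.12 CPM in TSP-4 plasmid libraries and 3.78 ± 0.854 CPM in empty plasmid libraries. Prss12, the protease that cleaves agrin, had 4.60 ± 0.57 CPM in TSP-4 plasmid libraries and 4.23 ± 1.17 CPM in empty plasmid libraries.

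Of 20 genes for heparan sulfate, the sugar chain of perlecan and agrin, 0 were called between plasmids, 11 lay above 0 and 9 below (median 0.01), and 10 were called between letters. Ext2, a chain polymerase, had 255.5 ± 15.8 CPM in TSP-4 plasmid libraries and 240.3 ± 13.7 CPM in empty plasmid libraries. B3gat3, which completes the linker to the core protein, had 27.7 ± 3.30 CPM in TSP-4 plasmid libraries and 29.7 ± 1.40 CPM in empty plasmid libraries. The extracellular sulfatases Sulf2 and Sulf1, which trim sulfate groups from the chain, had the highest FPKM of the list. Sulf2 had 307 ± 22.2 CPM in TSP-4 plasmid libraries and 299 ± 16.2 CPM in empty plasmid libraries. Sulf1 had 552 ± 77.5 CPM in TSP-4 plasmid libraries and 510 ± 78.7 CPM in empty plasmid libraries.

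Of the 8 lists, the proteases known to cut laminins, nidogens or perlecan had the highest share of genes called between letters, 84.6%. The receptor genes followed with 75%, and the share of all genes tested was 28.1%. The order of the lists was not tested. Of 13 genes 0 were called between plasmids, 7 lay above 0 and 6 below (median 0.00), and 11 were called between letters. Mmp3, stromelysin, stood at 63.9, 299, 244.5 and 76.7 CPM in TSP-4 plasmid libraries A to D, against 68.0, 336, 221 and 87.7 CPM in empty plasmid libraries A to D. It was high in B and C and low in A and D in both groups, a range between letters of 2.27 on the log2 scale (edgeR adjusted p 3.68e-09). Ctsl, a cathepsin, had 667 ± 65.5 CPM in TSP-4 plasmid libraries and 682 ± 74.6 CPM in empty plasmid libraries. Htra1, a secreted serine protease, had 50.7 ± 4.50 CPM in TSP-4 plasmid libraries and 45.8 ± 3.07 CPM in empty plasmid libraries. Tll1, a tolloid-like metalloprotease, had 37.0 ± 12.9 CPM in TSP-4 plasmid libraries and 44.3 ± 12.2 CPM in empty plasmid libraries.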

How the data were processed

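Per the labels' protocols, the NEBNext Ultra kit was used on poly(A) RNA. Read counts per gene were used as the authors deposited them, as whole numbers, and the deposited FPKM table holds the authors' values per gene length and library total. Each FPKM value equalled the count divided by length and total, times 1 constant per library (0.974 to 1.02). The submitters' processing notes list HTSeq 0.6.1, Cufflinks 2.1.1, TopHat2 2.0 and CASAVA, and as builds GRCm38.p6 and mm10. The annotation release, the strand setting and the handling of reads with several places were not given in the sources used here. Depth was 17123735 to 22530947 counts per library.

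Counts were tested with edgeR 4.0.16 (quasi-likelihood, limma 3.58.1, R 4.3.3) with TMM factors, after its expression filter (minimum count 10), which left 14723 genes. Plasmid was the single term, and Benjamini-Hochberg adjustment over all genes was read at 0.05. An F test for letter kept the plasmid as a term. Same-letter libraries deviated together from their group means, with r from 0.508 to 0.651 across genes, every one above the limit of 0.1. Pairs of different letters lay at -0.57 to 0.323, and some of these passed 0.1 too (0.115, 0.159 and 0.323). The limit alone therefore does not separate the pairs, but each same-letter r was above every other r. Centring on group means also pushes the other pairs towards negative r, so their values below 0 are no separate support. By this check of the data the letters pair the libraries, which the labels do not state. No libraries were duplicates: pairs of libraries gave a chi-square of 4.88 to 12.4 per gene if they shared a letter and of 10.3 to 37.4 if they shared a group, where counting noise alone gives about 1. Chain shares used exact permutation tests. The tests were checked on simulated data, where the share of false calls was above the nominal one, most so for the letter test and the replicate block. The members' letter calls and their p-values from the block carry that limit. For the plasmid tests the simulated libraries had no differences between letters, unlike the real ones. That check therefore does not show how often the fit without the block calls falsely in these data.

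The members, the gene lists (163 entries, 2 matched by synonym, 0 unmatched) and the naming rule were chosen with earlier results of these data known. The rule named every member, Thbs4 and, per list of partners, the 2 genes with the smallest unadjusted p and the 2 with the highest FPKM, and the 5 genes most like the member of widest range. Alternatives were the replicate block, DESeq2 1.42.0, limma voom, other size factors, no filter, raw-count shares and each library left out. The block with each letter left out was added after seeing the data. Some genes that the rule names are not reported here.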

Additional observations from a re-analysis of the deposited data

Results flagged for a closer look

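Of 34 groups of 4 libraries examined, 2 had a library far from the others, and chance flags about 1 in 20 such groups. The total count of TSP-4 plasmid library A was 22530947, against 17681837 in the next highest TSP-4 plasmid library, a gap of 0.897 of that group's range. Nid1 in empty plasmid library A stood at 498 CPM, against 429 CPM in the next highest empty plasmid library, a gap of 0.852 of that group's range. TSP-4 plasmid library A had the highest Nid1 level of its group too, at 503 CPM.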

How the results depend on the processing

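Under every alternative run, 0 members were called between plasmids, and the median log2 fold change stayed above 0, from 0.0014 to 0.12 with 1 library left out. With the replicate block it was 0.06, and with a letter left out of that block 0.05 to 0.09. Between letters 7 to 10 members were called with 1 library left out (18.6 to 28.6% of all genes tested) and 10 without the expression filter (16.7%). The unfiltered fit called 5072 of 30348 genes, against 4134 of 14723 with the filter, so its lower percent does not mark a stricter test. Its adjusted p from edgeR's F test was smaller for each member, as for Nid2 with 2.9e-60 against 6.39e-07. The other fits called 8, namely other size factors (28.3%), limma voom (28.4%), no plasmid term (24.7%) and DESeq2 (17.7%, or 2663 genes against 4134 in edgeR). With the replicate block DESeq2 called 7 genes in all and edgeR 2. Lamb1 and Lamc1 passed without the filter (adjusted p 0.0388 and 0.0178) and without empty plasmid library A (0.0459 and 0.0323). Lamb1 passed without TSP-4 plasmid library A (0.0295), and Lama5 did not pass without TSP-4 plasmid library D (0.0555).

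For 7 members the log2 fold change between plasmids crossed 0 with 1 library left out, in a fit without the block, where leaving out 1 library also leaves its letter in 1 group alone. The ranges were -0.10 to 0.15 for Lama2, -0.0018 to 0.34 for Lama4, -0.19 to 0.0036 for Lama5, -0.060 to 0.014 for Lamb1, -0.083 to 0.050 for Nid1, -0.13 to 0.37 for Nid2 and -0.0066 to 0.11 for Hspg2. With the replicate block and both libraries of a letter left out, Nid1 alone crossed 0 (0.0045 without letter B), and Lama4 lay between 0.09 and 0.19. Lamb2, Lamc1 and Agrn kept their sign, with ranges of 0.05 to 0.19, 0.06 to 0.14 and 0.0043 to 0.13. Differences of shares, in percentage points, ran from -3.59 to 1.74 for Lama2, -0.482 to 5.06 for Lama4, -3.13 to 1.12 for Nid1, -0.718 to 0.534 for Hspg2, -1.50 to -0.639 for Lama5 and -4.26 to -1.05 for Lamb1 (-4.26 without TSP-4 plasmid library D, exact permutation p = 0.0571). Beyond the uneven letters, the cause of these changes of sign was not tested. Of the members, Lama5 and Nid2 rest on the fewest counts, 464 to 729 and 653 to 1450 per library.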
